A study of Mus musculus with 9 samples.

Results

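The genes that carry glucose through glycolysis, gluconeogenesis and glycogen in the liver were followed in 9 mouse livers. The genes were chosen by name, and a gene entered the set when its symbol had a value above 0 in at least 1 liver. All 35 named genes met this rule, out of 23183 gene symbols, of which 16889 were above 0 in at least 1 liver. They are 1 glucose transporter (Slc2a2), 2 hexokinases (Hk1 and Hk2), the fructose kinase Khk, 11 genes of glycolysis, 6 of gluconeogenesis and 6 of glycogen metabolism. The others are 4 genes of pyruvate dehydrogenase and its kinases, the glycerol phosphate dehydrogenase Gpd1, 2 genes of the pentose phosphate pathway and Txnip, whose transcription follows the supply of glucose.

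Each library came from the liver of 1 mouse, and there were 3 groups of 3. All were males of the inbred strain C57BL/6J. The ND mice (numbers 6, 7 and 9) ate a normal diet with 14% fat for 10 weeks, and the HFD mice (1, 2 and 3) ate a high-fat diet with 60% fat and less carbohydrate for the same time. The PRF 50 mice (3, 9 and 10) ate the HFD for 10 weeks and were given PRF by mouth at 50 mg/kg per day in the last 5 of them. PRF is a fraction rich in polymethoxyflavones, prepared from the leaf of Citrus sunki. All mice had reached postnatal day 100 and had been fasted for 8 h when the liver was taken. An oral glucose tolerance test was run on the final day of the experiment, and whether these mice took it is not stated. Whether the ND and HFD mice received the vehicle of PRF is not stated either.

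Values are log2(FPKM + 1) as deposited, where FPKM is the fragment count scaled by transcript length and library size, and FPKM alone marks values converted back. Where 3 values of a group are given, they stand in the order of the mouse numbers above. Between 14372 and 14980 genes were above 0 in each library, and Pearson's r between pairs of libraries was 0.962 to 0.986 across genes, which are not independent replicates. The tables hold no read counts, which leaves the depth behind a value unknown. Steps between low values put the depth of the libraries at 1.057, 1.149 and 1.11 times that of HFD mouse 1 in the ND mice, 1.169 and 1.597 in HFD mice 2 and 3, and 0.983, 1.51 and 0.963 in the PRF 50 mice. HFD mouse 2 stood apart by 1 small nuclear RNA, Rnu6, at 22.44, which raised its summed FPKM to 6247559 against 527583 to 655459 in the other 8 libraries. Without Rnu6 its sum was 545429. An exact 0 is given only as listed at 0, because the hepatocyte gene Alb is listed at 0 in all 9 livers.

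The liver both uses and makes glucose. After a meal glucose enters hepatocytes through GLUT2, is phosphorylated and is stored as glycogen or broken down to pyruvate, which pyruvate dehydrogenase passes on to acetyl-CoA for lipid synthesis. During fasting glycogen is broken down and new glucose is built from lactate, glycerol and amino acids, and both routes end at glucose-6-phosphatase, which releases free glucose to the blood.

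Gluconeogenic and glycolytic genes were among the most abundant transcripts of these livers. Fbp1 was the most abundant of the 35 genes, with a mean of 657 FPKM over the 9 livers, rank 121 among the 16889 genes above 0. Gapdh (612 FPKM), Pck1 (575), Khk (453) and Ldha (402) followed. Of the 35 genes, 14 had a mean of at least 100 FPKM and 29 of at least 10 FPKM. At the other end stood Pck2 (0.553 FPKM), Hk1 (0.641) and Hk2 (0.304), which were below the minimum mean of 1 FPKM and were tested in no comparison. Pdk4 was too low to be tested in PRF 50 vs ND. So 32 of 35 genes were tested in HFD vs ND, 32 in PRF 50 vs HFD and 31 in PRF 50 vs ND. G6pc had the widest range, from 8.61 FPKM in PRF 50 mouse 3 to 103 FPKM, or 3.44 on the log2 scale.

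**Figure D1:**
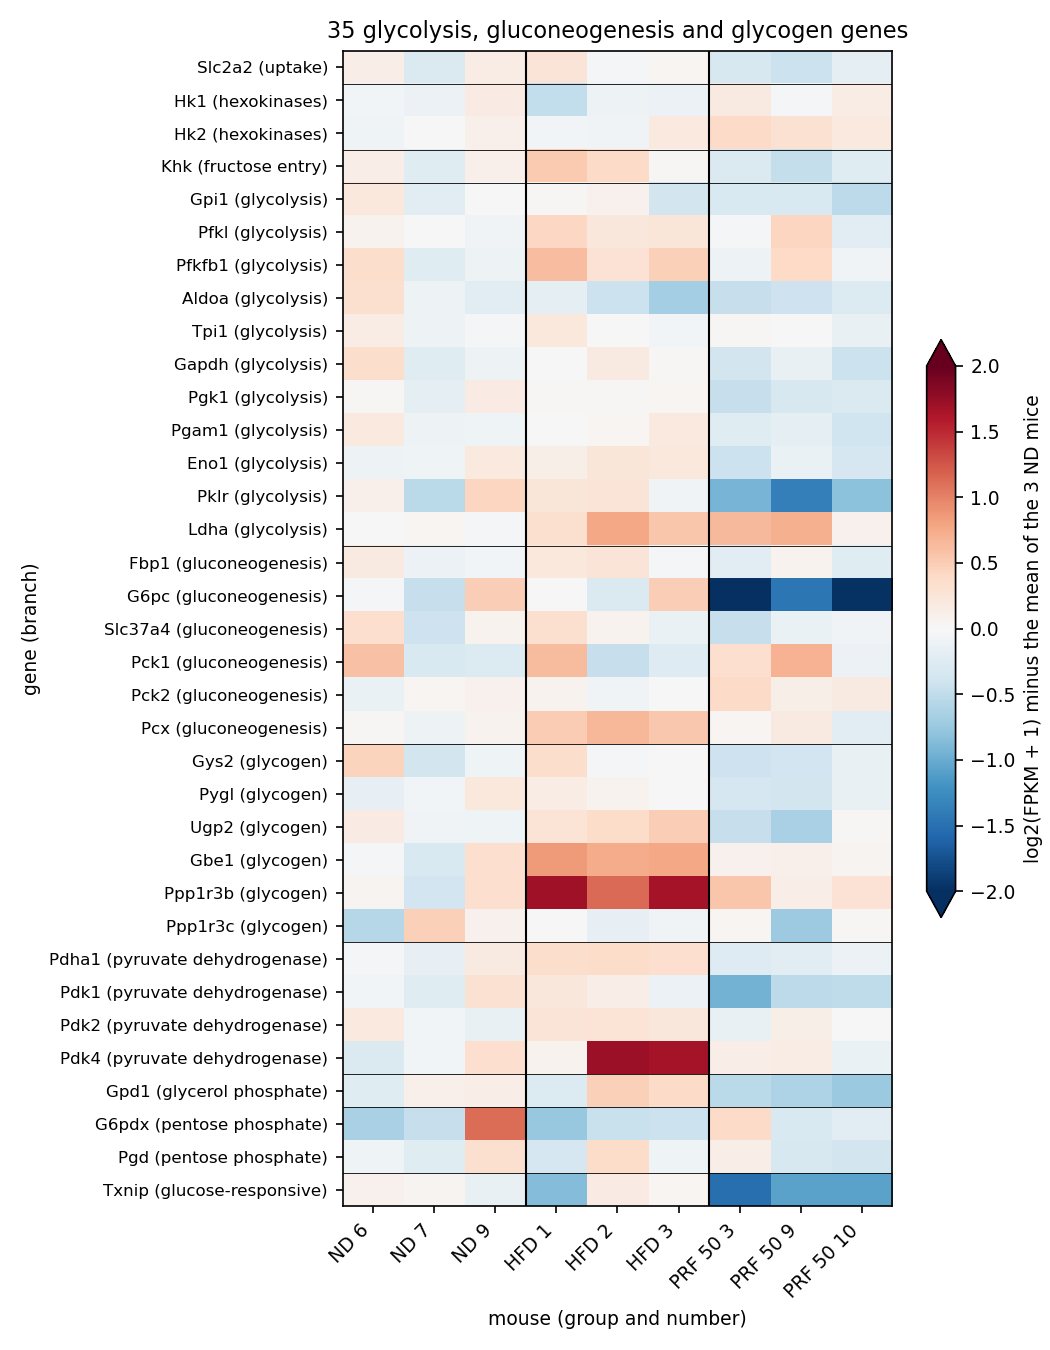
The 35 genes by branch (vertical axis) in each of the 9 mice (horizontal axis), as log2(FPKM + 1) minus the mean of the 3 ND mice; blue is below and red above that mean, and colours are limited at 2. G6pc and Pklr are blue in the 3 PRF 50 mice, and Ppp1r3b and Gbe1 are red in the 3 HFD mice.

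In HFD vs ND the glycogen-targeting gene Ppp1r3b rose, and no gene of the set fell. Of the 32 genes tested, 1 was called higher (adjusted p under 0.05, limma) and 0 lower, against 0.702% and 0.631% of all 9978 genes tested. At an unadjusted p under 0.05, 10 of the 32 genes passed, beside 1504 of all 9978, and 2 of them (Ppp1r3b and Pdk4) were also more than 2-fold higher and 0 lower, against 0.692% and 0.651% of all genes. The 3 HFD values lay above the 3 ND values for 8 genes and below them for 0, against 10.7% and 10% of all genes. The log2 fold change was positive in 25 genes and negative in 7, with a median of 0.10 against -0.01 over all genes tested. Without ND mouse 7 it was positive in 18 and negative in 14, with a median of 0.033. Without ND mouse 6 it was positive in 26 and negative in 6, with a median of 0.215. The 1 call was lost without ND mouse 6, ND mouse 7 or HFD mouse 3, which left 0 calls. Without ND mouse 9 there were 2 calls, Ppp1r3b and Gbe1, and without HFD mouse 1 the 1 call was Pdk4 and not Ppp1r3b. With no minimum level 0 were called, and with all 9 mice in 1 fit 2 (Ppp1r3b and Gbe1).

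In PRF 50 vs HFD most genes of the set had a negative log2 fold change. This comparison shares its 3 HFD mice with HFD vs ND, so opposite signs are favoured even without a change. The genes that fell were the glucose-6-phosphatase gene G6pc, the liver pyruvate kinase gene Pklr, the glycogen genes Ppp1r3b and Gbe1, and Pdha1 and Pdk1 of pyruvate dehydrogenase. These were 6 of 32 genes tested, with 0 called higher, against 2.16% of all 10084 genes called lower and 1.43% called higher. At an unadjusted p under 0.05, 22 of the 32 genes passed, beside 2039 of all 10084, and 4 of them (G6pc, Pklr, Ppp1r3b and Pdk4) were also more than 2-fold lower and 0 higher, against 1.04% and 1.06% of all genes. The 3 PRF 50 values lay below the 3 HFD values for 19 genes and above them for 1 (G6pdx), against 15.3% and 10.9% of all genes. Counting genes below the minimum level, 4 lay above, the others being Hk1, Hk2 and Pck2. The log2 fold change was negative in 29 genes and positive in 3 (G6pdx, Pck1 and Aldoa), with a median of -0.38 against -0.02 over all genes tested. The count depended on single mice: 1 gene was called without HFD mouse 2, 0 without HFD mouse 3, 0 without PRF 50 mouse 3, and 4 without PRF 50 mouse 9 or 10. Without HFD mouse 1 it was 6, of which Pklr, Gbe1 and Pdha1 were also called with all mice, and Pdk4, Gpd1 and Txnip were not. With no minimum level 3 remained (Pklr, Gbe1 and Pdha1).

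Txnip fell in PRF 50 vs ND, and no other gene of the set was called. This was 1 of 31 genes tested called lower and 0 higher, against 0.298% and 0.159% of all 10051 genes. At an unadjusted p under 0.05, 9 of the 31 genes passed, beside 1256 of all 10051, and 3 of them (G6pc, Pklr and Txnip) were also more than 2-fold lower and 0 higher, against 0.716% and 1.04% of all genes. The groups did not overlap for 11 lower genes and 1 higher gene (Ldha), against 11.8% and 8.19% of all genes. Below the minimum level Hk2 and Pck2 were also higher, which makes 3. The log2 fold change was negative in 24 genes and positive in 7, with a median of -0.28 against -0.03 over all genes tested. The call of Txnip was lost without ND mouse 6, ND mouse 7 or PRF 50 mouse 3, and with no minimum level, which left 0 calls. With all 9 mice in 1 fit the 1 call was G6pc and not Txnip. The 3 comparisons share mice, so their values are given side by side and none stands as a repeat of another. In whole liver, fewer cells of a type and less RNA per cell cannot be told apart.

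**Figure D2:**
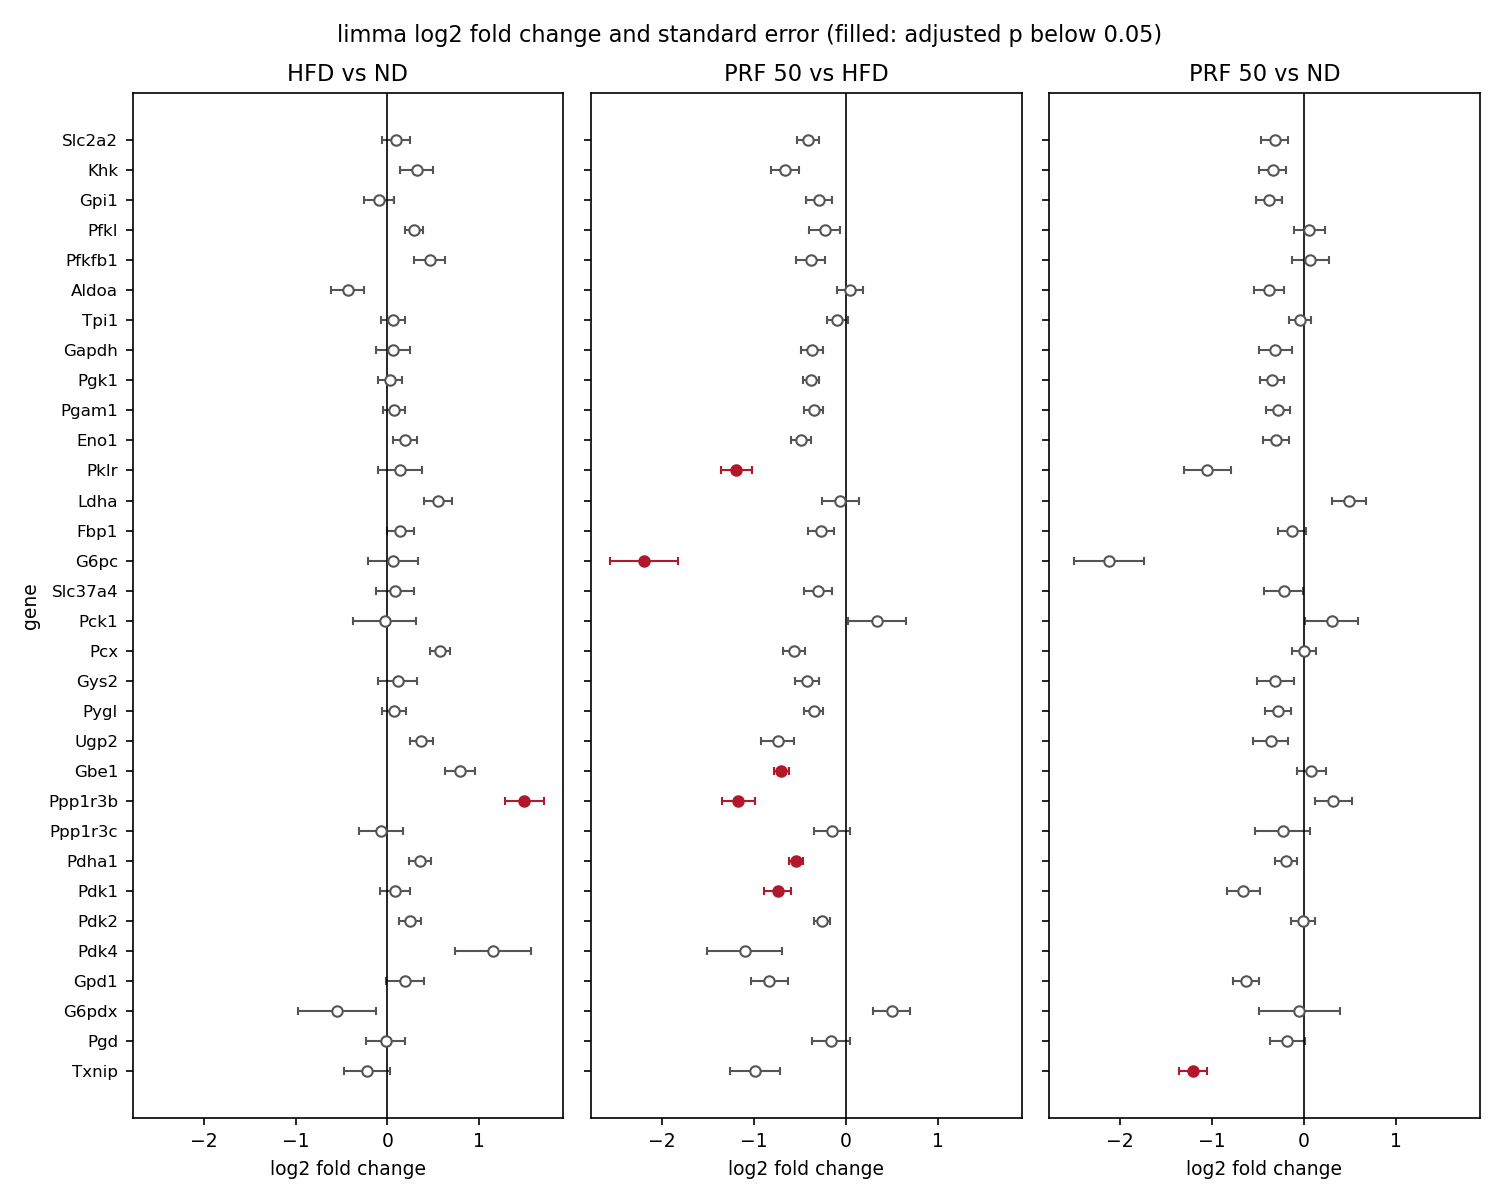
Log2 fold change on the log2(FPKM + 1) scale (horizontal axis) of each tested gene (vertical axis) in the 3 comparisons, with bars for the standard error from limma; filled points have an adjusted p under 0.05. Of 32 points for PRF 50 vs HFD, 29 lie left of 0, with G6pc farthest at -2.19.

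Entry of sugar into the pathway was measured through Slc2a2 and Khk. Slc2a2, which encodes the glucose transporter GLUT2, was at 7.45, 7.03 and 7.47 in the ND mice, 7.57, 7.30 and 7.36 in the HFD mice and 6.99, 6.88 and 7.14 in the PRF 50 mice. The 3 PRF 50 values lay below the 3 HFD values and overlapped the ND values (PRF 50 vs HFD -0.41, SE 0.12, adjusted p = 0.104). Khk, the kinase that commits fructose to liver metabolism, was at 8.94, 8.56 and 8.90, 9.33, 9.19 and 8.83, and 8.51, 8.32 and 8.55. For Khk the PRF 50 mice lay below all HFD and all ND mice, and the difference from HFD missed the threshold (-0.66, SE 0.15, adjusted p = 0.0671). Khk was called under quantile normalization (0.0468 to 0.114 over the 7 settings that kept all mice). The hexokinases of other tissues were near the floor and were not tested. Hk1 was at 0.627, 0.56 and 0.875 FPKM in the ND mice, 0.189, 0.567 and 0.558 FPKM in the HFD mice and 0.901, 0.63 and 0.86 FPKM in the PRF 50 mice. Hk2 was at 0.131, 0.201 and 0.291 FPKM, 0.154, 0.145 and 0.377 FPKM, and 0.566, 0.49 and 0.384 FPKM. For both genes the PRF 50 values lay above all HFD values, and for Hk2 also above all ND values.

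Of the 11 glycolytic genes, 1 fell in PRF 50 vs HFD (Pklr), against 2.16% of all genes called lower. Of the 11, 6 passed an unadjusted p under 0.05, beside 2039 of all 10084. PRF 50 values lay below all HFD values for 5 of the 11, against 15.3% of all genes, and the median of the 11 was -0.35. In HFD vs ND 0 of the 11 were called by limma (4 at an unadjusted p under 0.05, median 0.07), and in PRF 50 vs ND 0 (5 at an unadjusted p under 0.05, median -0.30). Pklr encodes the pyruvate kinase of hepatocytes, which makes pyruvate in the last step of glycolysis, and its transcription is known to respond to dietary carbohydrate through the factor ChREBP (gene Mlxipl). Pklr was at 7.14, 6.49 and 7.47 in the ND mice, 7.27, 7.29 and 6.97 in the HFD mice and 6.10, 5.66 and 6.21 in the PRF 50 mice. The 3 PRF 50 mice lay below the other 6 mice, and ND and HFD mice overlapped. In FPKM the group means were 135 ± 43.8, 145 ± 17.7 and 63.4 ± 12.4 (SD, n = 3). Pklr fell by 1.19 in PRF 50 vs HFD (SE 0.17, adjusted p = 0.0211). Leaving out single mice gave adjusted p from 0.0288 to 0.0756, above 0.05 without HFD mouse 2, HFD mouse 3 or PRF 50 mouse 3. Against ND the difference was -1.05 (SE 0.26, adjusted p = 0.153), and HFD vs ND was 0.14 (SE 0.24, adjusted p = 0.82).

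Pklr lies at chr3:89136142-89146784 on the plus strand of GRCm38. Its 2 RefSeq starts differ, and the 250 bases before the downstream start, chr3:89136373-89136622, are shown because Pklr was called and they hold a pair of E-box cores (letters CACGNG on either strand, in capitals) 170 and 159 bases before the start. Paired E-box cores of this kind are the general layout that ChREBP is known to bind. The last 51 bases of the window lie in an exon of Pklr in GENCODE M21.
Pklr, downstream start: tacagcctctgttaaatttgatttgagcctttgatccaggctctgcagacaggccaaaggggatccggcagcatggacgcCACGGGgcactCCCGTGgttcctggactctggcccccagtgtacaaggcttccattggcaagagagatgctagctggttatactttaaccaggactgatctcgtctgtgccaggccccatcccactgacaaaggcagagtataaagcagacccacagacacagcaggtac
The 2 matches do not overlap. A match describes the letters of the window and shows no binding. Exons of Hcn3 on the opposite strand cover 22% of the exon bases of Pklr. Hcn3 was at 2.92, 2.02 and 2.92 in the ND mice, 2.16, 2.37 and 2.10 in the HFD mice and 1.07, 0.80 and 1.56 in the PRF 50 mice (PRF 50 vs HFD -1.06, SE 0.19, adjusted p = 0.0355). The libraries were directional by the authors' account, but whether the counting used the strand is not stated, and if it did not, reads of the 2 genes cannot be told apart. Hcn3 was named after its values were seen.

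Between the aldolase and pyruvate kinase steps no gene was called. Eno1, the enolase, was at 7.49, 7.50 and 7.78 in the ND mice, 7.70, 7.83 and 7.80 in the HFD mice and 7.16, 7.45 and 7.26 in the PRF 50 mice (PRF 50 vs HFD -0.49, SE 0.11, adjusted p = 0.0559). Pgk1, phosphoglycerate kinase, was at 7.67, 7.45 and 7.81, 7.67, 7.66 and 7.68, and 7.19, 7.33 and 7.35 (-0.38, SE 0.09, adjusted p = 0.0702). For both genes every PRF 50 value lay below every HFD and every ND value, and both missed the threshold. Eno1 was called with a minimum of 10 FPKM (0.0495 to 0.154 over the 7 settings that kept all mice). Pgam1, phosphoglycerate mutase, had the same order, at 6.72, 6.42 and 6.43, 6.51, 6.57 and 6.72, and 6.28, 6.33 and 6.13 (-0.35, SE 0.10, adjusted p = 0.103). Gapdh, often used as a reference gene, was at 9.67, 9.08 and 9.22, 9.31, 9.50 and 9.35, and 8.96, 9.18 and 8.90. Its PRF 50 values lay below the HFD values but overlapped ND (-0.37, SE 0.12, adjusted p = 0.154).

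Other glycolytic genes had other orders. Ldha, which turns pyruvate to lactate and back, was at 8.28, 8.32 and 8.23 in the ND mice, 8.59, 9.05 and 8.83 in the HFD mice and 8.93, 8.99 and 8.37 in the PRF 50 mice. Both HFD groups lay above all ND mice, with HFD vs ND at 0.55 (SE 0.15, adjusted p = 0.144) and PRF 50 vs ND at 0.49 (SE 0.18, adjusted p = 0.329). Aldoa, an aldolase, was at 6.53, 6.11 and 5.98, 6.02, 5.77 and 5.52, and 5.74, 5.80 and 5.94. Its PRF 50 values lay below all ND values and among the HFD values (PRF 50 vs ND -0.38, SE 0.16, adjusted p = 0.386; HFD vs ND -0.43, SE 0.18, adjusted p = 0.316). Pfkl, the liver phosphofructokinase, was at 3.10, 3.04 and 2.96, 3.44, 3.26 and 3.27, and 3.01, 3.46 and 2.81, with all 3 HFD mice above ND and PRF 50 mouse 9 the highest of the 9 (HFD vs ND 0.29, SE 0.10, adjusted p = 0.233). Gpi1, the isomerase after hexokinase, was at 5.81, 5.38 and 5.61, 5.62, 5.69 and 5.24, and 5.29, 5.30 and 5.08, below all ND mice in PRF 50 (PRF 50 vs ND -0.38, SE 0.14, adjusted p = 0.321). The groups overlapped in every comparison for Tpi1, triose phosphate isomerase, over 7.75 to 8.10, and for Pfkfb1, the liver enzyme that sets fructose 2,6-bisphosphate, over 3.13 to 3.99.

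G6pc had the largest difference among the gluconeogenic genes. Of 5 tested genes, 1 fell in PRF 50 vs HFD (G6pc), against 2.16% of all genes called lower. Of the 5, 2 passed an unadjusted p under 0.05, beside 2039 of all 10084, and the median of the 5 was -0.30. HFD vs ND had 0 calls by limma (1 at an unadjusted p under 0.05, median 0.08), as had PRF 50 vs ND (1 at an unadjusted p under 0.05, median -0.13). G6pc encodes the catalytic subunit of glucose-6-phosphatase, which frees glucose from glucose 6-phosphate. G6pc was at 6.17, 5.75 and 6.70 in the ND mice, 6.20, 5.91 and 6.70 in the HFD mice and 3.26, 4.76 and 4.23 in the PRF 50 mice. All 3 PRF 50 mice lay below the other 6 mice, with the lowest value in mouse 3, and ND and HFD mice covered the same range. The group means were 75.6 ± 25.5, 78.3 ± 22.6 and 17.5 ± 8.77 FPKM (SD, n = 3). G6pc fell by 2.19 in PRF 50 vs HFD (SE 0.37, adjusted p = 0.0321), the largest difference among the 32 genes tested. Leaving out single mice gave log2 fold changes from -2.52 to -1.78 and adjusted p from 0.0288 to 0.103, with a call only without PRF 50 mouse 9. PRF 50 vs ND was -2.12 and was not called (SE 0.38, adjusted p = 0.0706), except with all 9 mice in 1 fit (0.038 to 0.159 over the 7 settings that kept all mice).

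**Figure D3:**
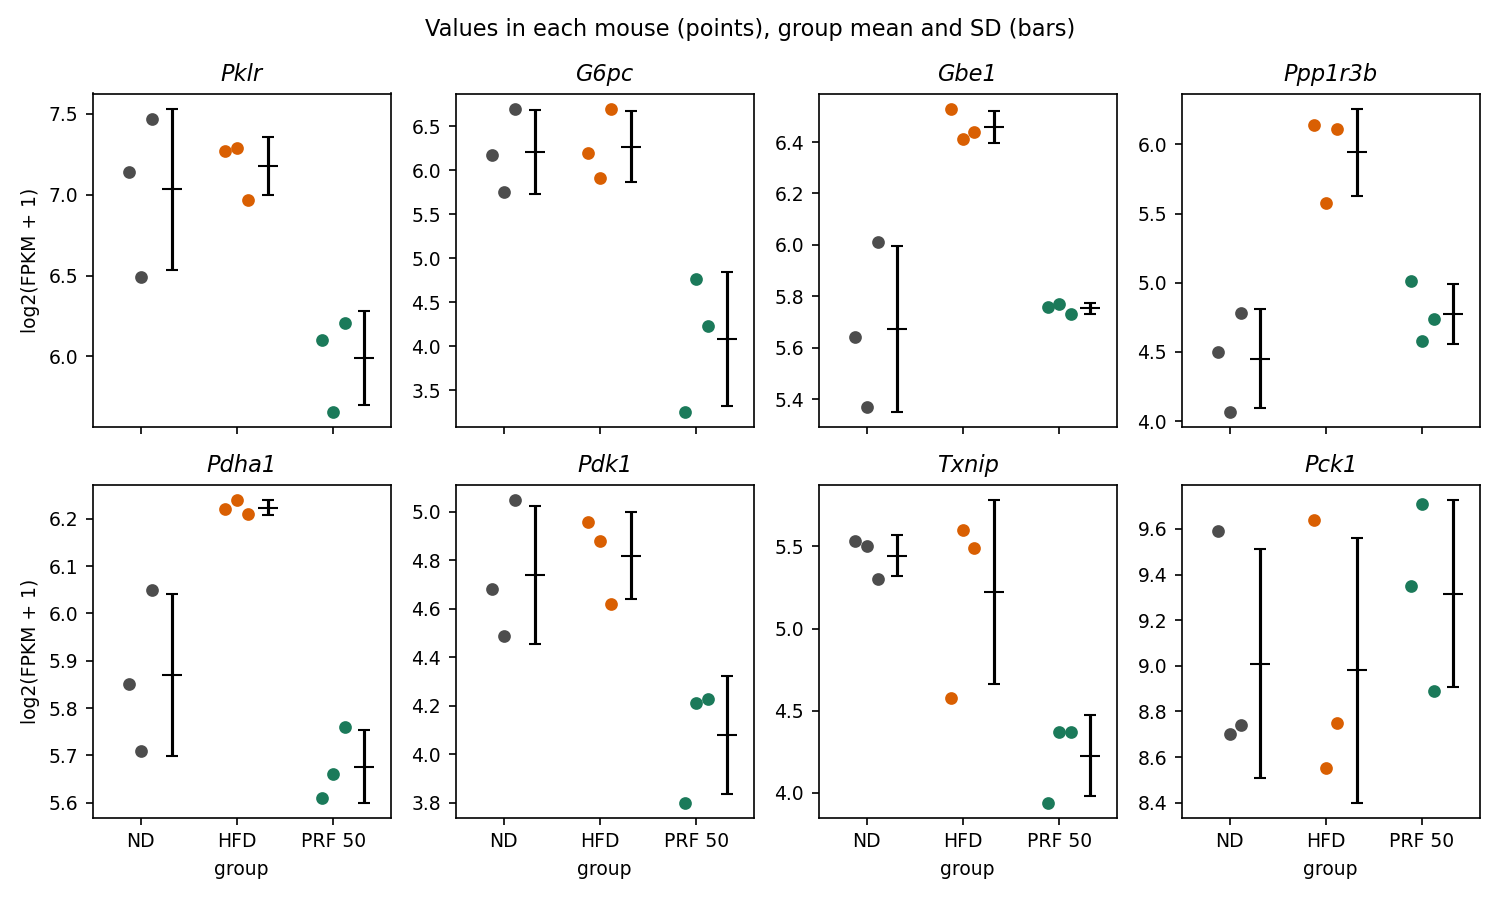
Values of 8 genes as log2(FPKM + 1) (vertical axis) in the ND, HFD and PRF 50 groups (horizontal axis); points are mice and bars are the group mean with its SD (n = 3), on axes that do not start at 0. The 3 PRF 50 points of G6pc lie between 3.26 and 4.76, below all other mice, while the points of Pck1 overlap between groups.

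Pck1, the cytosolic carboxykinase that commits oxaloacetate to gluconeogenesis, did not share that order. Pck1 was at 9.59, 8.70 and 8.74 in the ND mice, 9.64, 8.55 and 8.75 in the HFD mice and 9.35, 9.71 and 8.89 in the PRF 50 mice. The groups overlapped, with ND mouse 6 and HFD mouse 1 at 9.59 and 9.64 (PRF 50 vs HFD 0.34, SE 0.32, adjusted p = 0.607). Within each liver, Pck1 minus G6pc on the log2 scale was 3.42, 2.95 and 2.04 in the ND mice, 3.44, 2.63 and 2.05 in the HFD mice and 6.09, 4.95 and 4.66 in the PRF 50 mice. The 2 genes, which are known to be induced together by glucagon and repressed together by insulin, were thus farther apart in every PRF 50 liver than in any other liver. This difference between genes was chosen after their values were seen and was not tested.

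The 250 bases before the RefSeq starts of these 2 genes are shown to set the pair side by side. G6pc lies at chr11:101367561-101377903 and Pck1 at chr2:173153048-173159273, both on the plus strand of GRCm38. In the window of G6pc, chr11:101367466-101367715, capitals mark a forkhead core (TGTTTNC) 141 bases and a nuclear receptor core (AGGTCA, here on the other strand) 54 bases before the start. In the window of Pck1, chr2:173152823-173153072, capitals mark a cAMP response element core (TGACGTNA, here on the other strand) 93 bases before the start. GENCODE M21 starts the first exon of G6pc inside its window, so that 155 bases count as exon there, and 25 bases of the Pck1 window do.
G6pc: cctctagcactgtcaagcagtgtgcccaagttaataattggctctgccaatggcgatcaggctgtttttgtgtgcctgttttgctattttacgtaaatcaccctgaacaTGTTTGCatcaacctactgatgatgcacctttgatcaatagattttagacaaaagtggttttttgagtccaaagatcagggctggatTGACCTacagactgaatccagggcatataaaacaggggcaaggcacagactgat
Pck1: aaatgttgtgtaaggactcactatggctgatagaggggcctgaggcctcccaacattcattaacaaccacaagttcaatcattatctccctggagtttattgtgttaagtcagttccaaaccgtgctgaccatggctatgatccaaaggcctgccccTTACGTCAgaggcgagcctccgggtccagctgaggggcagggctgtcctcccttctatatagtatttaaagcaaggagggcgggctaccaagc
The forkhead core was not in the Pck1 window and the cAMP response element core was not in the G6pc window. This says only that these letters are not in these windows.

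The other gluconeogenic genes stayed closer together. Pcx, pyruvate carboxylase, was at 6.60, 6.48 and 6.65 in the ND mice, 7.08, 7.24 and 7.11 in the HFD mice and 6.61, 6.76 and 6.37 in the PRF 50 mice. The HFD mice lay above all other mice, and both differences missed the threshold (HFD vs ND 0.57, SE 0.11, adjusted p = 0.0559; PRF 50 vs HFD -0.56, SE 0.12, adjusted p = 0.0524). Pcx was called lower in PRF 50 vs HFD with all 9 mice in 1 fit and with a minimum of 10 FPKM, and its adjusted p ran from 0.033 to 0.146 over the 7 settings that kept all mice. Fbp1, the fructose bisphosphatase opposite phosphofructokinase, overlapped between groups, over 9.11 to 9.60. Slc37a4, which carries glucose 6-phosphate to glucose-6-phosphatase, also overlapped, over 6.05 to 6.86 (PRF 50 vs HFD -0.30, SE 0.15, adjusted p = 0.331). Pck2, the mitochondrial carboxykinase, was at 0.339, 0.514 and 0.553 FPKM in the ND mice, 0.538, 0.395 and 0.466 FPKM in the HFD mice and 0.915, 0.594 and 0.666 FPKM in the PRF 50 mice. All 3 PRF 50 values lay above the other 6, with no test at this level.

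Glycogen genes held the 1 call of HFD vs ND. Of 6 tested genes, 1 rose in HFD vs ND (Ppp1r3b), against 0.702% of all genes called higher. Of the 6, 3 passed an unadjusted p under 0.05, beside 1504 of all 9978, and their median was 0.24 over the 6. In PRF 50 vs HFD 2 of the 6 fell (Ppp1r3b and Gbe1), against 2.16% of all genes called lower. There 5 of the 6 passed an unadjusted p under 0.05, beside 2039 of all 10084, and the median of the 6 was -0.56. None was called by limma in PRF 50 vs ND, with 0 at an unadjusted p under 0.05 and a median of -0.25. The summed level of the 6 genes was 587, 497 and 571 FPKM in the ND mice, 725, 667 and 709 in the HFD mice and 444, 413 and 532 in the PRF 50 mice. The HFD livers thus lay above all others, and the PRF 50 livers overlapped ND.

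Ppp1r3b (chr8:35375739-35388139, plus strand) encodes the liver subunit that brings protein phosphatase 1 to glycogen, where the phosphatase activates glycogen synthase. Ppp1r3b was at 4.50, 4.07 and 4.78 in the ND mice, 6.14, 5.58 and 6.11 in the HFD mice and 5.01, 4.58 and 4.74 in the PRF 50 mice. The 3 HFD mice lay above all other mice, and PRF 50 and ND mice overlapped. It rose by 1.49 in HFD vs ND (SE 0.21, adjusted p = 0.0228) and fell by 1.17 in PRF 50 vs HFD (SE 0.18, adjusted p = 0.0249). The group means were 21.4 ± 5.37, 61.4 ± 12.6 and 26.6 ± 4.22 FPKM (SD, n = 3). Leaving out single mice kept both directions, with adjusted p from 0.0238 to 0.0969 in HFD vs ND and from 0.0297 to 0.0845 in PRF 50 vs HFD. The first call was lost without ND mouse 6 or 7 or HFD mouse 1 or 3, and the second in 5 of 6 cases, all but that without HFD mouse 2.

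Gbe1 (chr16:70313949-70569716, plus strand), the branching enzyme, had the same order of groups. It was at 5.64, 5.37 and 6.01 in the ND mice, 6.53, 6.41 and 6.44 in the HFD mice and 5.76, 5.77 and 5.73 in the PRF 50 mice. The HFD mice lay above all others, and the PRF 50 values were close together and inside the ND range. It fell by 0.70 in PRF 50 vs HFD (SE 0.08, adjusted p = 0.0147), with adjusted p from 0.0226 to 0.0563 when single mice were left out and above 0.05 without HFD mouse 2, HFD mouse 3 or PRF 50 mouse 3. HFD vs ND was 0.79 (SE 0.16, adjusted p = 0.0755), called with all 9 mice in 1 fit (0.0351 to 0.147 over the 7 settings that kept all mice) and without ND mouse 9 (0.0278 to 0.241 over the 6 leave-outs).

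Ugp2, which makes the UDP-glucose used for glycogen, was at 7.84, 7.60 and 7.58 in the ND mice, 7.95, 8.04 and 8.16 in the HFD mice and 7.21, 7.03 and 7.70 in the PRF 50 mice. HFD values lay above ND values (0.37, SE 0.13, adjusted p = 0.231) and above PRF 50 values (PRF 50 vs HFD -0.74, SE 0.18, adjusted p = 0.0728). The latter was called with all 9 mice in 1 fit (0.047 to 0.136 over the 7 settings that kept all mice) and without PRF 50 mouse 10 (0.0293 to 0.203 over the 6 leave-outs). The liver glycogen synthase Gys2 was at 7.13, 6.32 and 6.59, 7.03, 6.66 and 6.68, and 6.26, 6.30 and 6.53. The liver glycogen phosphorylase Pygl was at 7.14, 7.24 and 7.51, 7.45, 7.36 and 7.30, and 6.96, 6.93 and 7.15. In both, PRF 50 mice lay below HFD mice and overlapped ND, with differences from HFD of -0.42 (SE 0.13, adjusted p = 0.135) for Gys2 and -0.35 (SE 0.10, adjusted p = 0.103) for Pygl. Ppp1r3c, another glycogen-targeting subunit, overlapped between groups over 3.16 to 4.37.

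Pyruvate dehydrogenase is held back by kinases that phosphorylate its E1 alpha subunit. Of the 4 genes tested in PRF 50 vs HFD, 2 fell (Pdha1 and Pdk1), against 2.16% of all genes called lower. All 4 passed an unadjusted p under 0.05, beside 2039 of all 10084, and the median of the 4 was -0.64. HFD vs ND had 0 calls by limma among 4 (2 at an unadjusted p under 0.05, median 0.30), and PRF 50 vs ND 0 among 3 (1 at an unadjusted p under 0.05, median -0.19). Summed, the 4 genes were at 139, 121 and 143 FPKM in the ND mice, 164, 167 and 159 in the HFD mice and 106, 122 and 122 in the PRF 50 mice.

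Pdha1 (chrX:160122209-160138413, minus strand), the E1 alpha subunit itself, was at 5.85, 5.71 and 6.05 in the ND mice, 6.22, 6.24 and 6.21 in the HFD mice and 5.61, 5.66 and 5.76 in the PRF 50 mice. HFD mice lay above all others, and PRF 50 and ND mice overlapped. Pdha1 fell by 0.54 in PRF 50 vs HFD (SE 0.08, adjusted p = 0.0238), with adjusted p from 0.0419 to 0.09 without single mice, above 0.05 without HFD mouse 2, HFD mouse 3 or PRF 50 mouse 3. Pdk1 (chr2:71873224-71903858, plus strand), a kinase of the complex, was at 4.68, 4.49 and 5.05, 4.96, 4.88 and 4.62, and 3.80, 4.21 and 4.23. Here the PRF 50 mice lay below the other 6 mice, and ND and HFD mice overlapped. Pdk1 fell by 0.74 in PRF 50 vs HFD (SE 0.15, adjusted p = 0.0434), and the call was lost without any 1 of the 6 mice (adjusted p 0.0658 to 0.141). The enzyme gene and the kinase gene thus both fell.

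Pdk2, the kinase most abundant in these livers, was at 5.87, 5.62 and 5.52 in the ND mice, 5.93, 5.94 and 5.89 in the HFD mice and 5.52, 5.79 and 5.68 in the PRF 50 mice, with HFD above all others (PRF 50 vs HFD -0.26, SE 0.09, adjusted p = 0.188). Pdk4, the kinase known to be induced by fasting and fatty acids, was at 0.34, 0.57 and 0.97, 0.70, 2.33 and 2.29, and 0.76, 0.77 and 0.50. HFD mice 2 and 3 stood above all others and HFD mouse 1 did not. HFD vs ND was 1.15 (SE 0.41, adjusted p = 0.256) and PRF 50 vs HFD -1.10 (SE 0.41, adjusted p = 0.194). Without HFD mouse 1 both were called, at 1.68 and -1.63, and adjusted p over the 6 leave-outs ran from 0.0137 to 0.586 and from 0.00533 to 0.424. At these levels, below 5 FPKM, the log2(FPKM + 1) scale understates a fold change.

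Gpd1, which makes glycerol 3-phosphate and so ties glycolysis to triglyceride synthesis, was at 6.65, 7.0 and 7.03 in the ND mice, 6.62, 7.37 and 7.27 in the HFD mice and 6.36, 6.28 and 6.15 in the PRF 50 mice. The PRF 50 mice lay below the other 6 mice (PRF 50 vs HFD -0.83, SE 0.20, adjusted p = 0.0705; PRF 50 vs ND -0.63, SE 0.14, adjusted p = 0.108). With all 9 mice in 1 fit PRF 50 vs HFD was called (0.0484 to 0.147 over the 7 settings that kept all mice). Without HFD mouse 1, the lowest of the HFD mice, PRF 50 vs HFD was called at -1.06, and adjusted p over the 6 leave-outs ran from 0.0104 to 0.201. G6pdx, the entry enzyme of the pentose phosphate pathway, was at 1.0, 1.19 and 2.76, 0.89, 1.21 and 1.22, and 2.03, 1.34 and 1.43. Among the tested genes it was the only one with all PRF 50 values above all HFD values (0.50, SE 0.20, adjusted p = 0.224), and ND mouse 9 was the highest of the 9. Pgd, the next dehydrogenase of that pathway, overlapped between groups over 3.56 to 4.30.

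Txnip, which encodes a brake on glucose uptake and is known to be induced by glucose through ChREBP, was at 5.53, 5.50 and 5.30 in the ND mice, 4.58, 5.60 and 5.49 in the HFD mice and 3.94, 4.37 and 4.37 in the PRF 50 mice. The PRF 50 mice lay below the other 6 mice, and HFD mouse 1 stood about 1 unit under its group. Txnip fell by 1.21 in PRF 50 vs ND (SE 0.15, adjusted p = 0.0217), with adjusted p from 0.0237 to 0.111 without single mice and above 0.05 without ND mouse 6, ND mouse 7 or PRF 50 mouse 3. With all 9 mice in 1 fit the call was also lost (0.011 to 0.0777 over the 7 settings that kept all mice). PRF 50 vs HFD was -0.99 (SE 0.27, adjusted p = 0.0979), and it was called, at -1.31, when HFD mouse 1 was left out (0.0205 to 0.257 over the 6 leave-outs). The group means were 42.5 ± 3.68, 38.1 ± 13.3 and 17.9 ± 3.05 FPKM (SD, n = 3).

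Txnip lies at chr3:96557957-96561883 on the plus strand of GRCm38. The 250 bases before its start, chr3:96557707-96557956, are shown because it was called and because they hold 4 E-box cores (capitals, 160, 85, 74 and 52 bases before the start) and 1 forkhead core (capitals, 121 bases before the start).
Txnip: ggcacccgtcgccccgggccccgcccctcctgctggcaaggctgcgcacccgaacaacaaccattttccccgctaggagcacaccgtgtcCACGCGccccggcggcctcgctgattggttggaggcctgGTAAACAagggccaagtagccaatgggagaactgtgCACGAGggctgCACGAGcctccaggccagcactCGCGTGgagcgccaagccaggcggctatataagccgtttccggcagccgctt
The whole window lies in an exon of the antisense gene Gm15441 in GENCODE M21, which also covers 19.4% of the exon bases of Txnip. Gm15441 was at 0.28, 0.26 and 0.07 in the ND mice, 0.48, 0.52 and 0.51 in the HFD mice and 0.00, 0.05 and 0.16 in the PRF 50 mice. It was highest in the 3 HFD mice, and it was below the minimum level and not tested. Reads of the pair cannot be told apart if the strand was not used. Gm15441 was named after its values were seen.

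The same cores were counted before every start in the RefSeq promoter table (GRCm38.p6), on both strands and in 250 bases. Of the 35 genes 32 had an entry, with 49 windows; Ppp1r3b, Gys2 and Gpd1 had none. E-box cores (CACGNG) were before 16 of the 32 genes, against 26.1% of 27025 gene symbols, and forkhead cores (TGTTTNC) before 9, against 19.9%. The nuclear receptor core (AGGTCA) was before 8 genes, against 15.8% of symbols, and the cAMP response element core (TGACGTNA) before 2, Pck1 and Ldha, against 2.9%. The HNF4 core (CAAAGTCCA) was before 0 of the 32, against 0.5%. These shares were not tested, genes with several starts have more letters searched, and E-box cores also lay before genes that were not called, such as Khk, Pcx and Ugp2. Of the 6 called genes with an entry, 2 (Pklr and Txnip) had an E-box core, and G6pc, Gbe1, Pdha1 and Pdk1 had none.

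The other genes of these pathways were read from a list of 95 genes, of which 68, 70 and 70 were tested in HFD vs ND, PRF 50 vs HFD and PRF 50 vs ND. Called higher and lower were 2 and 1 in HFD vs ND, 1 and 7 in PRF 50 vs HFD, and 0 and 0 by limma in PRF 50 vs ND, where 16 passed an unadjusted p under 0.05. The shares of all genes called higher and lower were 0.702% and 0.631%, 1.43% and 2.16%, and 0.159% and 0.298%. Median log2 fold changes of the list were 0.03, -0.12 and -0.08. Without HFD mouse 3, 0 of the list were called in either of the first 2 comparisons. The 3 HFD vs ND calls became 0 without ND mouse 7 and 1 without HFD mouse 2. The 8 PRF 50 vs HFD calls became 1 without HFD mouse 2 or PRF 50 mouse 3, and 4 without HFD mouse 1 or PRF 50 mouse 10. With no minimum level the 3 became 1 and the 8 became 4. Slc5a2 and Ldhc of the list are listed at 0 in all 9 livers.

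Pyruvate and glycerol handling held most of these calls. Slc16a7, a monocarboxylate transporter, was at 4.74, 4.64 and 4.69 in the ND mice, 5.82, 5.49 and 5.62 in the HFD mice and 4.41, 4.58 and 4.58 in the PRF 50 mice. It rose by 0.95 in HFD vs ND (SE 0.11, adjusted p = 0.0112) and fell by 1.12 in PRF 50 vs HFD (SE 0.11, adjusted p = 0.0107). The HFD mice lay above all others, as they did for Gyk, the glycerol kinase, at 4.56, 4.88 and 4.76, 5.58, 5.55 and 5.45, and 4.78, 4.88 and 4.70. Gyk rose by 0.79 (SE 0.11, adjusted p = 0.0228) and fell by 0.74 (SE 0.09, adjusted p = 0.0147). Mpc1, a subunit of the mitochondrial pyruvate carrier, was at 8.32, 7.91 and 8.06, 8.61, 8.45 and 8.62, and 7.87, 7.64 and 7.82. Mpc1 fell by 0.79 in PRF 50 vs HFD (SE 0.11, adjusted p = 0.0201), and Gpd2, the mitochondrial glycerol phosphate dehydrogenase, by 0.88 (SE 0.15, adjusted p = 0.0322). Without HFD mouse 3 all of these calls were lost. In HFD vs ND, Slc16a7 and Gyk were also lost without ND mouse 7, and Gyk without HFD mouse 2. In PRF 50 vs HFD, Gyk, Mpc1 and Gpd2 were also lost without HFD mouse 2 or PRF 50 mouse 3, and Gpd2 without PRF 50 mouse 10. Adjusted p over the 6 leave-outs reached 0.0579 and 0.0529 for Slc16a7, 0.0979 and 0.0604 for Gyk, 0.073 for Mpc1 and 0.111 for Gpd2.

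Fructose and malate-aspartate genes were also among the calls. Tkfc, the triokinase of fructose breakdown, fell by 0.64 in PRF 50 vs HFD (SE 0.13, adjusted p = 0.0429), beside Khk at -0.66 without a call. The call of Tkfc was lost without any 1 of the 6 mice (adjusted p 0.0664 to 0.14). Got1, the cytosolic aspartate aminotransferase, went against the rest, at 6.38, 6.17 and 6.42 in the ND mice, 5.47, 5.59 and 5.31 in the HFD mice and 6.13, 6.44 and 6.16 in the PRF 50 mice. The HFD mice lay below all others, and Got1 fell by 0.87 in HFD vs ND (SE 0.12, adjusted p = 0.0208) and rose by 0.78 in PRF 50 vs HFD (SE 0.12, adjusted p = 0.0249). Slc25a10, the mitochondrial dicarboxylate carrier, fell by 0.83 in PRF 50 vs HFD (SE 0.15, adjusted p = 0.0351). Got1 was lost in HFD vs ND without ND mouse 6 or 7 or HFD mouse 2 or 3 (adjusted p 0.0425 to 0.0952), and in PRF 50 vs HFD without any 1 of the HFD mice or PRF 50 mouse 3 (0.0422 to 0.0817). Slc25a10 kept its call only without PRF 50 mouse 9 (0.0376 to 0.103).

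Pkm, the pyruvate kinase of most other cells, was at 2.19, 2.48 and 2.91, 2.47, 2.68 and 2.84, and 3.36, 2.99 and 3.24. The PRF 50 mice lay above the other 6 mice (PRF 50 vs HFD 0.53, SE 0.13, adjusted p = 0.0818), so Pklr minus Pkm was 4.96, 4.01 and 4.56 in the ND mice, 4.80, 4.62 and 4.13 in the HFD mice and 2.75, 2.67 and 2.97 in the PRF 50 mice. Pkm and its difference from Pklr were chosen after the values were seen.

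Pkm is also known in macrophages, and macrophage markers were higher in the PRF 50 livers. Their 14 genes summed to 96.5, 180 and 223 FPKM in the ND mice, 117, 183 and 185 in the HFD mice and 627, 380 and 405 in the PRF 50 mice. Cd5l was the most abundant, with 20.3% of the sum, and none of the 14 was listed at 0 in all livers. Of 12 tested, 10 were called higher in PRF 50 vs HFD (median log2 fold change 1.43), against 1.43% of all genes tested. The count was 9 or fewer when a single mouse was left out, down to 0 without HFD mouse 3. It was 1 without HFD mouse 2 or PRF 50 mouse 3, 5 without PRF 50 mouse 10 and 7 without HFD mouse 1. With no minimum level 2 of 14 were called, and with all 9 mice in 1 fit 7 of 12. None was called by limma in PRF 50 vs ND, with all 12 at an unadjusted p under 0.05 (3 were called with all 9 mice in 1 fit, 2 without ND mouse 9 and 1 without PRF 50 mouse 9), and in HFD vs ND 0 of 11, with 0 at an unadjusted p under 0.05. Their part in the lower values of the glucose genes was not tested. The 12 hepatocyte markers summed to 34775, 27776 and 25215 FPKM in the ND mice, 33518, 28018 and 24020 in the HFD mice and 36431, 33948 and 30214 in the PRF 50 mice, led by Apoa1 (31.4%) and with Alb listed at 0. For PRF 50 vs HFD 0 of their 11 tested genes were called by limma (2 at an unadjusted p under 0.05, median 0.38), and 1 was called lower with a minimum of 10 FPKM, under quantile normalization or with no trend.

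**Figure D4:**
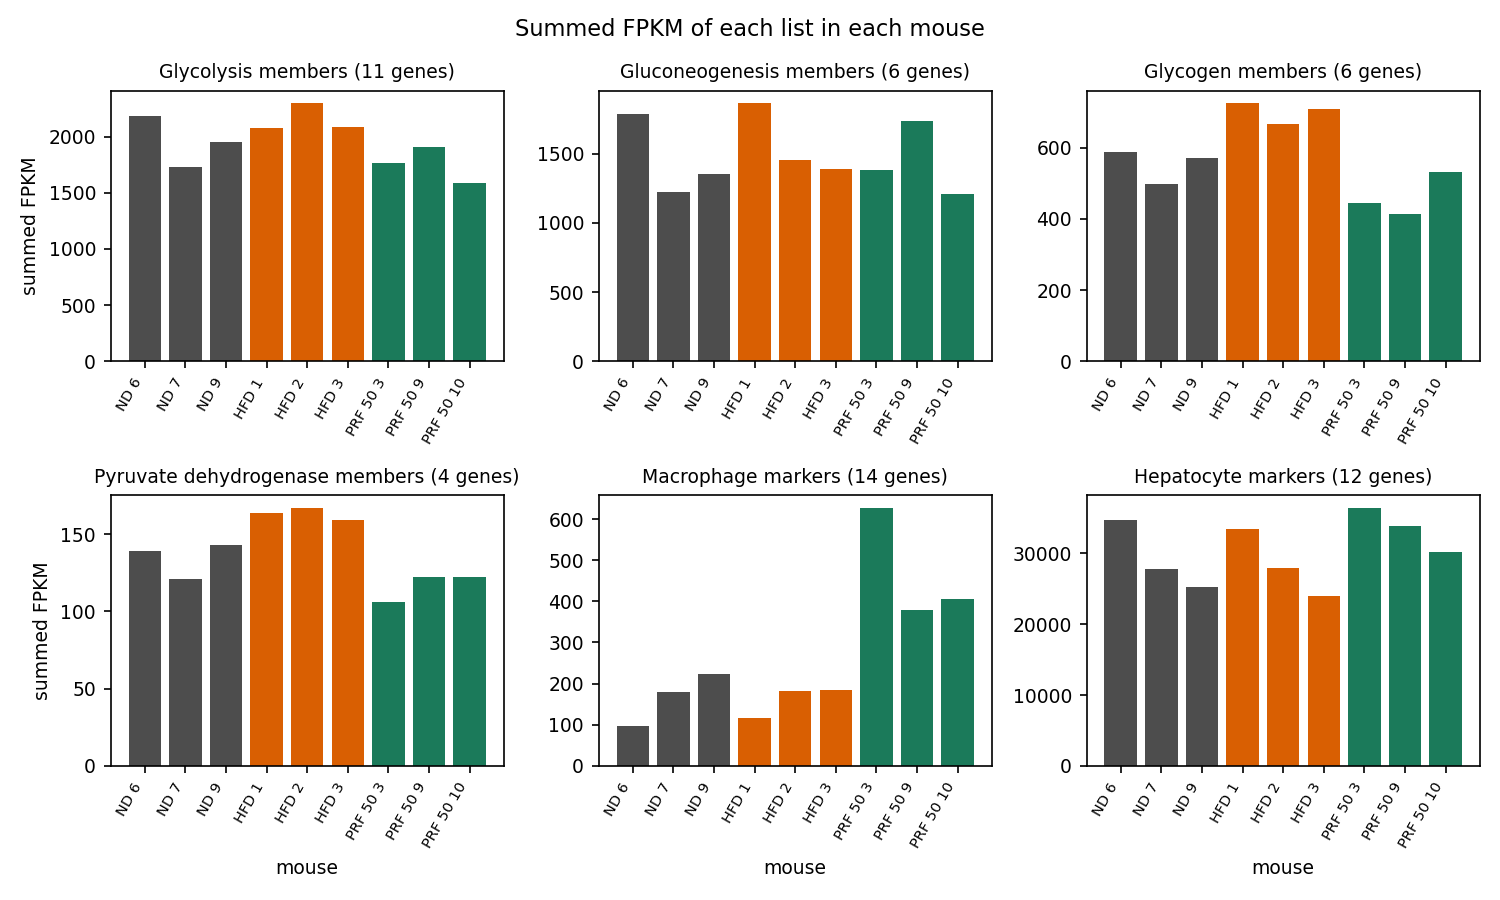
Summed FPKM (vertical axis, from 0) of 4 branches of the set and of the macrophage and hepatocyte markers in each of the 9 mice (horizontal axis; bars are single mice). Glycogen genes sum to 667 to 725 FPKM in the HFD mice and 413 to 532 FPKM in the PRF 50 mice, and macrophage markers to 380 to 627 FPKM in the PRF 50 mice against 96.5 to 223 FPKM in the other 6.

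Markers of other cells and tissues were read in the same way. Sinusoidal endothelium (8 genes, led by Clec4g) summed to 64.6, 83.5 and 107 FPKM, 24.2, 57.1 and 81.2, and 64.8, 60.3 and 102, so that HFD mouse 1 was the lowest. Lymphocyte and neutrophil markers (9 genes, led by S100a8) summed to 57.2 and 18.7 FPKM in PRF 50 mice 3 and 9 and to 4.22 to 12.7 FPKM in the other 7 livers. Stellate cell markers (10 genes, led by Dcn) summed to 79.1 to 183 FPKM, cholangiocyte markers (6, led by Spp1) to 25.6 to 41.5 FPKM and erythroid markers (6, led by Hba-a1) to 110 to 228 FPKM. Of the tissues around the liver, skeletal muscle (8 genes, led by Mylpf) summed to at most 2.36 FPKM. Adipocyte markers (6 genes, led by Cfd, with Lep and Plin1 listed at 0) reached 7.53 and 15.5 FPKM in HFD mice 2 and 3 and at most 1.65 FPKM elsewhere. Exocrine pancreas markers summed to 15 to 44.2 FPKM, of which 97.4% was Cela1, and 6 of the 10 were listed at 0. With all mice and the settings used throughout, none of these lists had a call by limma in any comparison, and at most 2 genes of a list passed an unadjusted p under 0.05. The 9 immediate early genes, read as a sign of handling, summed to 32.1 to 85.2 FPKM over the 9 livers, also without a call. Single calls appeared in other fits: a stellate cell gene in HFD vs ND with all 9 mice in 1 fit or without ND mouse 9 or HFD mouse 1, and an adipocyte gene in both comparisons with HFD without HFD mouse 1. The lymphocyte and neutrophil list gained 1 without ND mouse 6 or PRF 50 mouse 10, and the immediate early genes 1 without ND mouse 9 or PRF 50 mouse 10.

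Factors known to drive gluconeogenic transcription were read from a list of their own. All 19 listed were tested, with 0 called by limma in any comparison (1 lower in HFD vs ND under quantile normalization) and 2, 1 and 1 at an unadjusted p under 0.05, and medians of -0.03, 0.04 and 0.06. Foxo1 in PRF 50 vs HFD was at -0.14 (SE 0.15, adjusted p = 0.644), Ppargc1a at -0.12 (SE 0.15, adjusted p = 0.703) and Crtc2 at 0.24 (SE 0.08, adjusted p = 0.156). Cebpb had the largest difference of the list there (0.46, SE 0.26, adjusted p = 0.371), and Cebpa in HFD vs ND (-0.55, SE 0.14, adjusted p = 0.121). The HFD values lay below all ND values for 3 of the 19 (Cebpa, Hnf4a and Crtc2), against 10% of all genes tested. They lay above all ND values for 1 (Ppargc1a), against 10.7%. The PRF 50 values lay below all ND values for 3 (Cebpa, Hnf4a and Ppargc1b) and above for 0, against 11.8% and 8.19%. In PRF 50 vs HFD they lay above all HFD values for 1 (Crtc2) and below for 0, against 10.9% and 15.3%. Mlxipl, the gene of ChREBP, was at 4.66, 4.70 and 4.46 in the ND mice, 4.48, 4.27 and 4.10 in the HFD mice and 4.09, 4.41 and 4.32 in the PRF 50 mice, lower than all ND mice in PRF 50 and overlapping HFD (PRF 50 vs HFD -0.01, SE 0.13, adjusted p = 0.975). Mlxipl was named after its values were seen. A transcript level does not show the activity of the factor, which is also set by phosphorylation and location in the cell.

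Since gluconeogenic genes follow meals and time of day, both were read from other genes. Of the fasting and feeding genes, 11, 11 and 9 of 12 were tested. Cpt1a, the gate of fatty-acid entry to mitochondria, rose by 0.60 in HFD vs ND (SE 0.11, adjusted p = 0.0483). Thrsp, a lipogenic gene induced by feeding, fell by 1.97 in PRF 50 vs HFD (SE 0.21, adjusted p = 0.0133). None was called by limma in PRF 50 vs ND, with 1 at an unadjusted p under 0.05. The call of Cpt1a was lost without any 1 of the 6 mice (adjusted p up to 0.22), and that of Thrsp without HFD mouse 2 or 3 (up to 0.0529). Of the 7 settings that kept all mice, Cpt1a was called in 5 and Thrsp in 6. Igfbp1, which insulin represses in liver, had differences smaller than their errors in all comparisons, at 0.11 (SE 0.39), 0.05 (SE 0.46) and 0.16 (SE 0.44). Of 16 clock genes 14 were tested and 0 were called by limma in any comparison (1 lower in PRF 50 vs ND with all 9 mice in 1 fit), with 4, 3 and 2 at an unadjusted p under 0.05. Targets of PPARA, the fatty-acid receptor of fasting, had 5 of 15 called higher in HFD vs ND, against 0.702% of all genes tested. Called lower were 11 of 15 in PRF 50 vs HFD (median -1.66) and 2 of 14 in PRF 50 vs ND, against 2.16% and 0.298%. The 5 became 3 without ND mouse 7 or HFD mouse 3. The 11 became 3 without HFD mouse 2, 2 without HFD mouse 3, 5 without PRF 50 mouse 3 and 6 without PRF 50 mouse 10. The 2 became 4 without PRF 50 mouse 9, 1 without ND mouse 9 and 0 in the other cases. With all 9 mice in 1 fit the counts were 3, 11 and 7 of 15, with no minimum level 3, 7 and 0, and under quantile normalization 6, 9 and 0. Acot3, an acyl-CoA thioesterase, rose by 2.22 and fell by 4.27 in the first 2 of these comparisons (adjusted p = 0.0114 and 0.00162), where Pdk4, another known PPARA target, was at 1.15 and -1.10 without a call.

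Some values are less certain than their errors show. Gapdh, Ldha, Pgk1, Pgam1, Eno1, Aldoa, Tpi1 and G6pdx have near-identical copies in the mouse genome, mostly pseudogenes, and how the authors' counting treated reads that fit several copies is not stated. Exons of 13 of the 35 genes share bases with exons of another gene in GENCODE M21, in each case on the opposite strand, and 6 of them share more than 10% of their exon bases. For G6pdx the share is 13.6%, with Ikbkg, which was higher than G6pdx in all 9 livers (2.91 to 3.43 against 0.89 to 2.76). For Pdha1 it is 16.1%, with Map3k15, which was at 0.25 to 0.61 where Pdha1 was at 5.61 to 6.24.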

How the data were processed

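Liver RNA of 9 mice was sequenced by the authors as directional paired-end poly(A) libraries, trimmed, aligned to mm10 with TopHat and quantified with Cufflinks, and normalized with EdgeR by the authors' account. The deposited values are log2(FPKM + 1), where the 1 was inferred from a minimum of 0. The annotation, the software versions and whether counting used the strand are not stated. Each pair of groups was compared with limma 3.58.1 (lmFit, then eBayes with a trend) in R 4.3.3 on its 6 mice, over genes averaging 1 FPKM or more. P-values were adjusted by Benjamini-Hochberg over all genes tested, and an adjusted p under 0.05 is a call. The p-values set each difference between groups against the spread between the mice within them. The 35 genes and the other lists were chosen with earlier results of these data known. All 35 genes are named, with values in every mouse for those called, those whose groups did not overlap and the largest change of a branch. From other lists, called genes, the largest changes or defining genes are named. Some listed genes are not reported here by name. Alternatives were a fit of all 9 mice, each mouse left out, median-of-ratios scaling, a pseudocount of 0.1, no trend, a minimum of 10 FPKM, quantile normalization and no minimum level.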

Additional observations from a re-analysis of the deposited data

How the results depend on the processing

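With all mice kept, the calls of Pklr and Gbe1 in PRF 50 vs HFD held in all 7 alternatives. Genes called numbered 2 (all 9 mice in 1 fit) and 0 (no minimum level) in HFD vs ND, 3 (no minimum level), 5 (quantile normalization), 8 (minimum of 10 FPKM) and 9 (all 9 mice in 1 fit) in PRF 50 vs HFD and 0 (no minimum level) in PRF 50 vs ND. With no minimum level more genes are tested. The median of the 32 genes in PRF 50 vs HFD was -0.285 under quantile normalization, and that of the 31 genes in PRF 50 vs ND -0.141, where 8 genes and not 11 lay below all ND values. That setting also turned the log2 fold change of Pgk1 (-0.01) and Pck1 (0.09) in HFD vs ND, Tpi1 (0.02) and Ldha (0.01) in PRF 50 vs HFD, and Tpi1 (0.08), Fbp1 (0.05) and Pdk2 (0.09) in PRF 50 vs ND. A pseudocount of 0.1 turned G6pdx in PRF 50 vs ND (0.02). The cause was not tested.

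Leaving out 1 mouse at a time gave 0 to 2, 0 to 6 and 0 to 1 genes called in HFD vs ND, PRF 50 vs HFD and PRF 50 vs ND, and medians of 0.033 to 0.215, -0.423 to -0.353 and -0.330 to -0.187. No gene turned direction in a comparison in which it was called. In HFD vs ND, ranges that crossed 0 were those of Slc2a2 (-0.05 to 0.17), Gpi1 (-0.20 to 0.05), Tpi1 (-0.02 to 0.13), Gapdh (-0.06 to 0.23), Pgk1 (-0.07 to 0.11), Pklr (-0.13 to 0.36), G6pc (-0.17 to 0.31), Slc37a4 (-0.13 to 0.25), Pck1 (-0.36 to 0.26), Gys2 (-0.07 to 0.34), Pygl (0.00 to 0.18), Ppp1r3c (-0.35 to 0.17), Pdk1 (-0.05 to 0.24), G6pdx (-0.87 to 0.01), Pgd (-0.22 to 0.14) and Txnip (-0.41 to 0.10). In PRF 50 vs HFD they were Aldoa (-0.07 to 0.18), Ldha (-0.17 to 0.14), Ppp1r3c (-0.28 to 0.10) and Pgd (-0.32 to 0.04). In PRF 50 vs ND they were Pfkl (-0.12 to 0.20), Pfkfb1 (-0.09 to 0.25), Tpi1 (-0.08 to 0.03), Pcx (-0.08 to 0.11), Gbe1 (-0.07 to 0.25), Ppp1r3c (-0.51 to 0.03), Pdk2 (-0.09 to 0.09) and G6pdx (-0.37 to 0.51). The cause was not tested.

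No paired analysis was possible because the groups share fewer than 2 replicate numbers, which name animals. With 3 mice per group and no read counts, the precision of the low values of Hk1, Hk2, Pck2 and Pdk4 is unknown. Levels of RNA show neither enzyme activity nor flux, glycogen or glucose output.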
